A study of Homo sapiens with 7 samples.

Results

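The chains of integrins, laminins and collagens, the receptors and matrix proteins that hold epithelial cells to their surroundings, were followed in doxycycline-treated and untreated PC3 cells. The set took every named probe whose platform gene symbol starts with ITGA, ITGB, LAMA, LAMB, LAMC or COL followed directly by a digit, with ITGAV, ITGAX, ITGAM, ITGAL and ITGAE added. It held 54 of the 47323 probes in the signal table, for 42 of the 11389 genes named by a tested probe. Of these probes, 51 read a chain (20 integrin, 9 laminin and 22 collagen probes for 15, 7 and 18 genes), and 3 read proteins that only share the name, ITGB1BP1 and ITGB3BP. Names were at hand only for probes that 1 array or more had detected (detection p-value under 0.01). Probes of the same families below that limit on all arrays carry no name here, so the 54 probes are those that passed a detection filter and not all probes of these families. No tested probe carried the names ITGAX, ITGAM, ITGAL, ITGB6, LAMA3 or COL17A1. Since 4275 tested probes have no gene name, this does not show that these genes were undetected.

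Integrins are receptors made of 1 alpha and 1 beta chain that cross the cell membrane and link the matrix outside to actin or intermediate filaments inside. Laminins are trimers of an alpha, a beta and a gamma chain, and with networks of type IV collagen they form the basement membrane under epithelia. Fibrillar, beaded-filament and fibril-associated collagens build the stroma around it, and in prostate cancer the set of integrins and laminins a cell keeps is known to differ from that of normal prostate epithelium.

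PC3 is an established human prostate cancer line that was derived from a metastasis in bone. All cells had been transduced with a TRIPZ lentiviral vector in which HA-Flag-tagged MITFA, the A isoform of the transcription factor MITF, is under a doxycycline-inducible promoter, and no source used here says whether they were a pool or 1 clone. Doxycycline-treated cells (Dox, 4 arrays, replicates 1 to 4) were compared with untreated cells that carry the same cassette (No dox, 3 arrays, replicates 2 to 4), on Illumina HumanHT-12 BeadChips. Treated cells lacking the cassette were not analysed here, so the drug and MITFA cannot be told apart. No dose or duration is named for the arrays. No source used here says that the arrays came from separate cultures, so p-values measure the spread between arrays, which may be technical.

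Between 15562 and 16618 probes were detected on an array, and the 7 arrays correlated at 0.994 to 0.996. For MITF itself, the log2 fold change was −0.06 (adjusted p = 0.90 from limma) at a probe of which no source says whether it covers the transgene. The probe value is therefore no measure of induction. In doxycycline-treated cells with this cassette the paper reports induced MITF by qRTPCR and by western blot. No source used here says that the RNA on the arrays came from those experiments. Tested probes were found for 5 of 6 listed markers of PC3 and epithelial cells (KRT8, KRT19, EPCAM, VIM and CD44) and for 0 of 6 fibroblast markers (DCN, LUM, PDGFRA, PDGFRB, FAP and THY1). A gene without a named tested probe is not shown to be absent. The endothelial list had KDR and PECAM1 of 4 genes, and the summed signal of their probes was between 58.6 and 74.2 in Dox and between 63.5 and 72.3 in No dox. The summed signal of the 9 probes of the PC3 and epithelial list was between 12200 and 12562 in Dox and between 11186 and 11911 in No dox, without overlap. Probes of VIM and CD44 had the highest signals in that sum. Of the 9 probes, 5 had a log2 fold change above 0 and 4 below. The EPCAM probes had −0.27, −0.09 and −0.05, and KRT19 had −0.01. The part of this list in the integrin, laminin and collagen values was not tested.

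Most member probes read their gene on every array. A probe counted as detected on an array at a detection p-value under 0.01, which sets its signal against the negative control probes. Of the 54 probes, 41 were detected on all 7 arrays, against 14090 of all probes, which is 72.9% of the 19337 tested and 29.8% of the 47323 in the table. This was so for 9 of 10 integrin beta probes, 8 of 9 laminin probes, 6 of 10 integrin alpha probes and 15 of 22 collagen probes. The 13 others included 6 seen on a single array: ITGA7 and COL16A1 on a Dox array, and ITGA11, ITGB8, COL1A1 and COL4A2 on a No dox array. COL6A3 was likewise seen in 1 group only, on 2 No dox arrays. These 7 probes passed the filter through 1 group alone, so fold changes, intervals and counts of differing probes are given for the 47 that were detected on at least 1 array of each group, a limit set after the values were seen. Counts and medians over all 54 probes, or over all probes of a family, still include any of these 7. Between 43 and 46 member probes were detected on a Dox array and between 46 and 49 on a No dox array. Over all probes the counts were 15613 to 16618 in Dox and 15562 to 16256 in No dox, and these overlap. The member counts include 5 probes detected on no Dox array and 2 detected on no No dox array, and their difference was not tested.

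**Figure D1:**
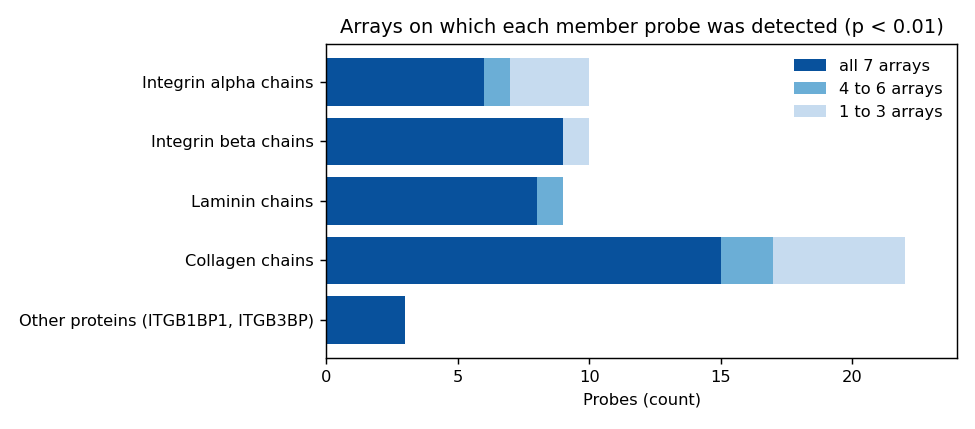
Number of member probes (x axis, count) in each family (y axis), split by the number of arrays on which the probe was detected. Of 22 collagen probes 15 were detected on all 7 arrays, and of 10 integrin beta probes 9 were.

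Comparing the groups asks which adhesion genes differed between Dox and No dox cells. None of the 54 probes passed an adjusted p under 0.05 in limma, in either direction. Over all tested probes, 26 of 19337 (0.134%) were called higher and 0 (0%) lower. Among the 47 probes detected in both groups the smallest adjusted p was 0.38. Of these 47, 3 had an unadjusted p under 0.05, COL4A6, ITGA3 and LAMA4, all higher in Dox, against 1305 (7.9%) of the 16519 probes detected in both groups. With all 19337 probes, whichever group they were detected in, that share was 8.5%, of which 4.49% higher and 4% lower. On the authors' log2 values the same fit called 0 of the 54 members and 101 (0.522%) of all tested probes. At an unadjusted p under 0.05 it had 5 of the 47, against 1672 of the 16519 probes detected in both groups. Without that limit it had 6 of the 54, against 9.41% of all tested probes.

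A p that misses the threshold does not show that the groups were alike, and the intervals give how large a difference these arrays leave room for. The 95% confidence interval of each of the 47 log2 fold changes lay within 1.5-fold in both directions, as it did for 98% of the probes detected in both groups and 97.8% of all tested probes. The bound farthest from 0 was that of a COL1A2 probe, at 1.42-fold, and the median half-width of the intervals was 0.20 on the log2 scale. Background correction with an added offset draws the fold changes of dim probes toward 0, so the bounds hold for the corrected signal and may understate the change in RNA. This concerns the 6 of these probes not detected on all arrays, and also dim probes detected on all 7. Among the latter, ITGB4 (ILMN_2317543) had a mean log2 signal of 4.96 in Dox and 4.81 in No dox, and COL8A2 5.20 and 5.05. The lowest detected signal of an array was between 4.65 and 4.76. The signal is per amount of labelled RNA, so fewer cells with a transcript and less transcript per cell cannot be told apart.

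**Figure D2:**
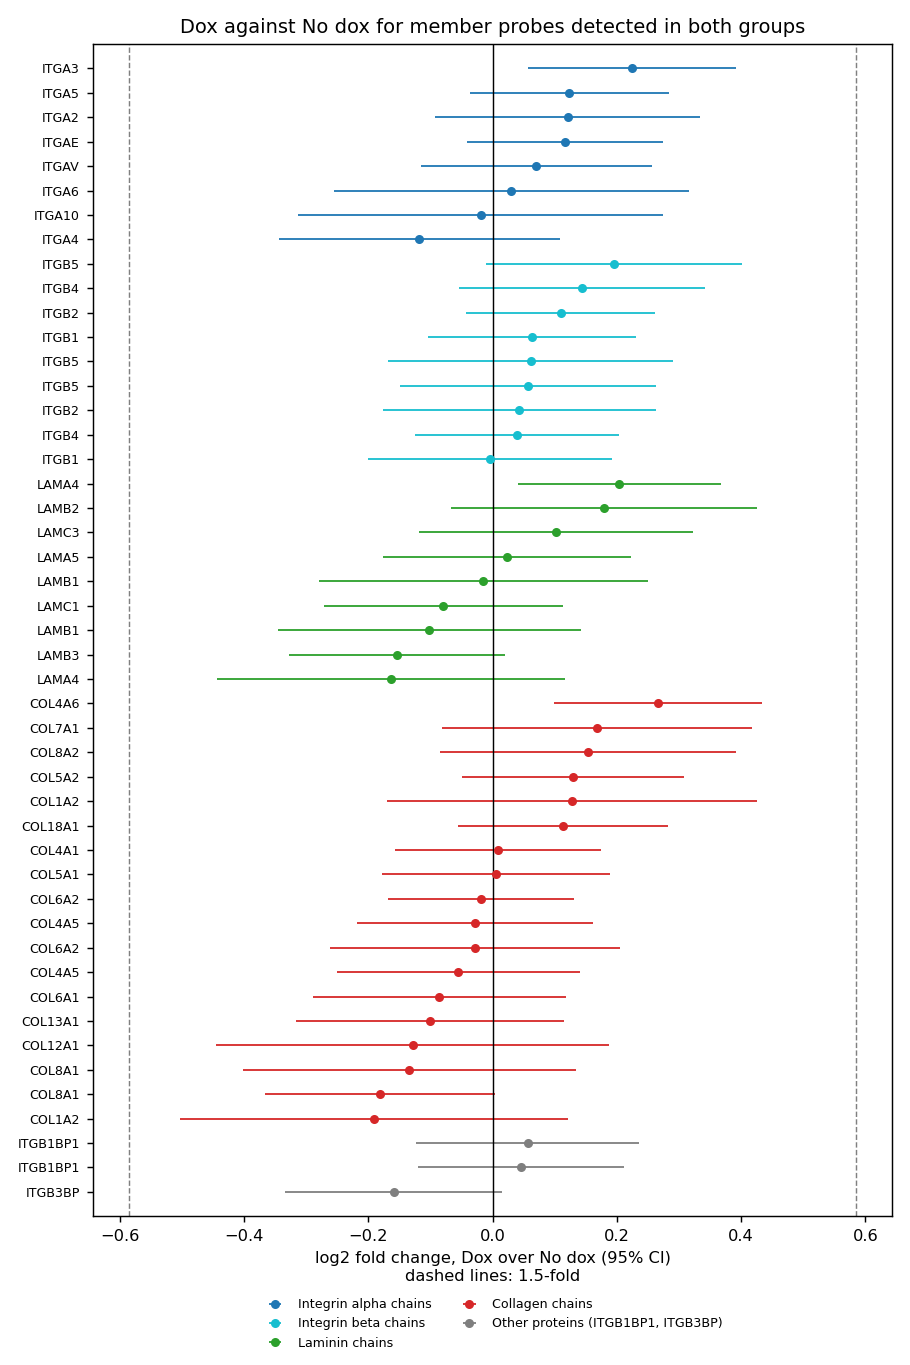
Log2 fold change of Dox over No dox (x axis) for the 47 member probes detected in both groups (y axis, by gene symbol, 1 line per probe), grouped by family. Points are limma estimates from 4 Dox and 3 No dox arrays, bars are 95% confidence intervals, and all bars lie between the dashed lines at 1.5-fold.

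Among the integrins detected in both groups, 14 of 17 probes had a log2 fold change above 0, against 49% of the 16519 probes detected in both groups (16 of 20 against 49.7% without that limit). Their median was 0.063, with −0.0025 over the 16519 probes, and single values ran from −0.12 to 0.22. In the laminins 4 of 9 probes were above 0 (median −0.015), and in the collagens 8 of 18 (median −0.024). These medians depend on single arrays. No dox replicate 2 had the lowest value of all 7 arrays in 21 of the 54 member probes, and without it 13 of 20 integrin probes were above 0, with a median over the 20 of 0.033. Without No dox replicate 4 that median was 0.12. The laminin median changed sign without Dox replicate 2 (0.015), Dox replicate 3 (0.053) or No dox replicate 3 (0.011). The collagen median over 22 probes did so without Dox replicate 2 (0.00030) or No dox replicate 2 (0.0068). No set test was run, and these medians are descriptions.

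**Figure D3:**
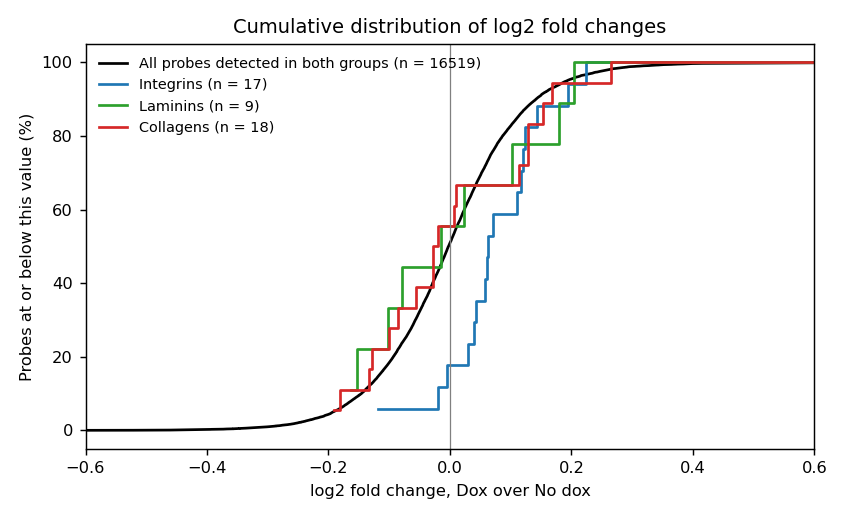
Share of probes (y axis, %) with a log2 fold change of Dox over No dox at or below the value on the x axis, for the integrin, laminin and collagen probes detected in both groups and for all 16519 such probes. The integrin curve lies right of the curve of all probes around 0, with 14 of 17 probes above 0, and the laminin and collagen curves cross it.

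ITGB1, the beta chain shared by most laminin, collagen and fibronectin receptors, had a probe (ILMN_1723467) with log2 signals of 11.98, 12.13, 12.10 and 12.11 in Dox replicates 1 to 4, against 11.95, 11.99 and 12.11 in No dox replicates 2 to 4. The groups overlapped, and the log2 fold change was 0.06 (95% CI −0.10 to 0.23). Its second probe (ILMN_1714820) had 10.58, 10.37, 10.39 and 10.35 in Dox and 10.38, 10.33 and 10.57 in No dox, with a 95% CI of −0.20 to 0.19. In both groups 1 array stood above the rest at that probe.

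ITGA3, the alpha chain of the laminin receptor α3β1, stood highest among the integrins. Its log2 signals were 8.85, 8.67, 8.71 and 8.65 in Dox, against 8.45, 8.48 and 8.55 in No dox. Each Dox array lay above each No dox array, and the log2 fold change was 0.22 ± 0.08 (SE, adjusted p = 0.48 from limma). On the authors' values it was 0.19 (adjusted p = 0.12). ITGA5, the alpha chain of the fibronectin receptor α5β1, had 7.26, 7.28, 7.40 and 7.36 in Dox and 7.26, 7.13 and 7.22 in No dox. Its groups did not overlap, though the lowest Dox and the highest No dox array both round to 7.26, and the log2 fold change was 0.12 (adjusted p = 0.68 from limma).

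For ITGA2, which binds collagen as α2β1, the arrays read 7.40, 7.51, 7.31 and 7.48 in Dox, against 7.10, 7.37 and 7.44 in No dox. The groups overlapped and the low No dox value was again that of replicate 2 (log2 fold change 0.12, 95% CI −0.09 to 0.33). Without that replicate the ITGA2 value was 0.02, and without No dox replicate 4 it was 0.19. ITGAV, the alpha chain of RGD-binding receptors for vitronectin and latent TGF-β, was close to constant in Dox, at 8.96, 8.98, 8.97 and 8.98, with 8.83, 8.79 and 9.08 in No dox (0.07, 95% CI −0.11 to 0.26). Its partner ITGB5 was read by 3 probes with log2 fold changes of 0.19, 0.06 and 0.06, and all 3 intervals included 0. In the first of them (ILMN_2311166) the Dox arrays had 9.71, 9.53, 9.77 and 9.66 and the No dox arrays 9.45, 9.33 and 9.64, so replicate 4 of No dox lay among the Dox values. The second (ILMN_1668374) had 9.72, 9.81, 9.82 and 9.71 in Dox and 9.51, 9.74 and 9.87 in No dox. The third (ILMN_1796755) had 6.56, 6.81, 6.68 and 6.86 in Dox and 6.48, 6.71 and 6.81 in No dox. No dox replicate 2 was the lowest array at both of these, and without it their log2 fold changes had the other sign, −0.04 and −0.03. For the first probe the value was 0.12 without No dox replicate 3.

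The α6β4 integrin is the hemidesmosome receptor for laminin and links to keratin filaments. ITGA6 had log2 signals of 5.17, 5.26, 4.999 and 5.47 in Dox and 5.29, 4.94 and 5.34 in No dox, and the arrays of both groups were mixed (log2 fold change 0.03, 95% CI −0.25 to 0.32). ITGB4 had 5.12, 4.79, 4.94 and 4.97 in Dox and 4.74, 4.82 and 4.88 in No dox at the probe ILMN_2317543, with overlap between groups and a log2 fold change of 0.14 (adjusted p = 0.70 from limma, 0.05 on the authors' values and 0.09 without Dox replicate 1). Its other probe (ILMN_2334210) had 5.85, 5.99, 5.82 and 5.86 in Dox and 5.77, 5.90 and 5.84 in No dox (0.04, 95% CI −0.12 to 0.20), again mixed. ITGB8, which joins ITGAV in a receptor that releases active TGF-β, was above background on no Dox array and 1 No dox array, so no fold is given for its log2 signals of 4.50, 4.56, 4.57 and 4.74 in Dox and 4.57, 4.82 and 4.41 in No dox. ITGA7, ITGA10 and ITGA11, alpha chains of receptors for laminin and collagen, were detected on 1, 3 and 1 of the 7 arrays.

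Integrins best known from leukocytes were also in the set. ITGB2, the beta chain of leukocyte integrins, had 5.85, 5.88, 5.99 and 5.89 in Dox, against 5.79, 5.81 and 5.78 in No dox, at the probe ILMN_2175912. Those groups did not overlap, while those of its second probe did (log2 fold changes 0.11 and 0.04, adjusted p = 0.71 and 0.94 from limma). ITGAE, the αE chain that binds E-cadherin, read 7.95, 7.88, 7.96 and 7.93 in Dox and 7.72, 7.89 and 7.83 in No dox (log2 fold change 0.12, or 0.07 without No dox replicate 2, adjusted p = 0.70 from limma). ITGA4, whose receptors bind VCAM1 and fibronectin, was detected on 3 of 4 Dox and 3 of 3 No dox arrays (log2 fold change −0.12). Of 5 listed leukocyte markers, PTPRC and CD3E had no tested probe, and the summed corrected signal of the 4 probes of CD14, CD68 and CD79A was between 499 and 586 in Dox and between 460 and 477 in No dox. The CD68 probes had the highest signals in that sum, with log2 fold changes of 0.18 and 0.20 and overlap between groups at each. CD14 had 0.21 and CD79A 0.61 at dim signals (adjusted p = 0.71 and 0.16 from limma). No marker of this list passed, and all cells were of the PC3 line. The part of these markers in the ITGB2 values was not tested.

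MITF binds DNA at the E-box motif CACGTG. It also binds a close variant, CATGTG, so windows of 300 bases around the gene starts of the members were searched for both. RefSeq windows (GRCh38.p14) were found for 32 of the 42 genes, 43 windows in all. The 10 genes without a window were not searched: COL1A1, COL1A2, COL5A2, COL6A1, COL8A1, ITGA3, ITGA7, ITGB2, ITGB4 and LAMC3. The letters CACGTG, which read the same on both strands, stood in 1 of the 43 windows, that of ITGA6, against 7.26% of 35116 windows of all genes. The other motif, searched on both strands, cannot share a full match with the first and stood in 1, that of ITGAE, against 11.1% of all. The windows are printed 5′ to 3′ on the strand of the gene, the one of ITGA6 at chr2:172427086-172427385 (+ strand) with the first motif in capitals and the one of ITGAE at chr17:3801139-3801438 (− strand) with the second motif in capitals, since these were the matches found. A match is a description of letters and not a binding site, and neither gene passed the test.
ITGA6: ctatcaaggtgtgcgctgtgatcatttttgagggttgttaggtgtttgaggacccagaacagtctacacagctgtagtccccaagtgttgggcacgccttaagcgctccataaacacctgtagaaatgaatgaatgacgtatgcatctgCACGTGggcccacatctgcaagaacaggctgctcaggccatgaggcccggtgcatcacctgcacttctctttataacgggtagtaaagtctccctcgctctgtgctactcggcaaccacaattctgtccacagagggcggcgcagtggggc
ITGAE: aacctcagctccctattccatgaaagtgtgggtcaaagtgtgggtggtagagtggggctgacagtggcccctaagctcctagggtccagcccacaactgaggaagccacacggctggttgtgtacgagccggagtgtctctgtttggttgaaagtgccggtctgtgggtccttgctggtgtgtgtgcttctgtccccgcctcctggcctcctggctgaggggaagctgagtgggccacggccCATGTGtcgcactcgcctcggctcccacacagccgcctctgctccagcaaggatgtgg

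Laminin chains were read by probes of 7 genes. LAMA5, the main laminin alpha chain of mature epithelial basement membranes, had 10.95, 10.80, 10.67 and 10.78 in Dox and 10.64, 10.88 and 10.81 in No dox, with the groups mixed (log2 fold change 0.02, 95% CI −0.18 to 0.22). LAMC1, the gamma chain of most laminins, had 8.69, 8.58, 8.57 and 8.49 in Dox and 8.50, 8.76 and 8.72 in No dox (−0.08, 95% CI −0.27 to 0.11), again with overlap. LAMB1, the most widespread laminin beta chain, had log2 fold changes of −0.01 and −0.10 at its 2 probes, and neither interval excluded 0. At the first of them (ILMN_1658709) the arrays had 9.65, 9.52, 9.41 and 9.86 in Dox and 9.76, 9.68 and 9.44 in No dox. The second (ILMN_2214790) had 6.79, 6.70, 7.13 and 6.90 in Dox and 7.12, 6.95 and 6.88 in No dox, and the groups overlapped at both.

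LAMB3, the beta chain of the laminin that anchors epithelia through α3β1 and α6β4, was the only laminin probe whose Dox arrays all lay below the No dox arrays. It had 6.56, 6.51, 6.51 and 6.59 in Dox, against 6.66, 6.60 and 6.84 in No dox (log2 fold change −0.15, 95% CI −0.33 to 0.02, adjusted p = 0.63 from limma). The LAMB3 value was −0.09 on the authors' values and −0.08 without No dox replicate 4. LAMB2, the beta chain of basement membranes of kidney, muscle and nerve, had 6.60, 6.77, 6.62 and 6.70 in Dox and 6.21, 6.61 and 6.65 in No dox. Its No dox replicate 2 was the lowest of all arrays and the others overlapped (0.18, adjusted p = 0.70 from limma). Without that replicate the log2 fold change of LAMB2 was 0.04, and on the authors' values it was 0.10.

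LAMA4, the alpha chain of laminins in vessel walls, showed how far 2 probes of 1 gene can part. At ILMN_1795442 it read 5.78, 5.86, 5.73 and 5.79 in Dox, against 5.59, 5.49 and 5.67 in No dox, with no overlap (log2 fold change 0.20, adjusted p = 0.51 from limma). On the authors' values it was 0.09. At ILMN_2140059, detected on 3 of 4 Dox and 3 of 3 No dox arrays, the log2 fold change was −0.16 (adjusted p = 0.76 from limma). Of the 11 member genes with several probes, 8 had the same sign at all of them, and LAMA4, COL1A2 and ITGB1 did not. LAMC3, a gamma chain known from few tissues, was detected on all arrays with a log2 fold change of 0.10 (95% CI −0.12 to 0.32).

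Type IV collagen genes lie in head-to-head pairs, so that 2 chains share 1 promoter region. COL4A6, which encodes the α6(IV) chain, had log2 signals of 6.60, 6.63, 6.75 and 6.77 in Dox, against 6.49, 6.39 and 6.39 in No dox. The groups were fully separated, with a log2 fold change of 0.27 ± 0.07 (SE, unadjusted p = 0.0054 and adjusted p = 0.38 from limma). On the authors' values COL4A6 had 0.16. Its neighbour COL4A5, the α5(IV) chain, had values that overlapped at both probes, with 8.67, 8.57, 8.57 and 8.73 in Dox and 8.77, 8.72 and 8.51 in No dox at ILMN_1742534 (log2 fold change −0.03, 95% CI −0.22 to 0.16). At ILMN_2375360 the log2 fold change of COL4A5 was −0.06 (95% CI −0.25 to 0.14). Whether the COL4A6 and COL4A5 values differ from each other was not tested.

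The widely used pair COL4A1 and COL4A2, the α1(IV) and α2(IV) chains of nearly all basement membranes, gave no separation. COL4A1 had 5.50, 5.36, 5.35 and 5.52 in Dox and 5.40, 5.42 and 5.46 in No dox, with the No dox arrays inside the Dox range (log2 fold change 0.01, 95% CI −0.16 to 0.17). COL4A2 was above background on no Dox array and 1 No dox array, so no fold is given for its log2 signals of 4.53, 4.58, 4.59 and 4.68 in Dox and 4.55, 4.41 and 4.73 in No dox. The promoter windows of each pair overlap on opposite strands. The COL4A6 window at chrX:108439409-108439708 (− strand) and the COL4A1 window at chr13:110307108-110307407 (− strand), both GRCh38.p14 from RefSeq, are shown 5′ to 3′ because they hold these shared stretches. Capitals mark the 121 bases also in the COL4A5 window and the 226 bases also in the COL4A2 window. Neither window holds either E-box motif on either strand.
COL4A6: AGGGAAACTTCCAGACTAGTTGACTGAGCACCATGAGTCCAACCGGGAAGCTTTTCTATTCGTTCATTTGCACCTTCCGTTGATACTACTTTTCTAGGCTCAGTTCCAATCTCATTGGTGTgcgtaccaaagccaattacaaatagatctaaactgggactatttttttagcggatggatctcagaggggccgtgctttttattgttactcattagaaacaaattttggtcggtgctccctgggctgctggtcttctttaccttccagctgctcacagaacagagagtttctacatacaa
COL4A1: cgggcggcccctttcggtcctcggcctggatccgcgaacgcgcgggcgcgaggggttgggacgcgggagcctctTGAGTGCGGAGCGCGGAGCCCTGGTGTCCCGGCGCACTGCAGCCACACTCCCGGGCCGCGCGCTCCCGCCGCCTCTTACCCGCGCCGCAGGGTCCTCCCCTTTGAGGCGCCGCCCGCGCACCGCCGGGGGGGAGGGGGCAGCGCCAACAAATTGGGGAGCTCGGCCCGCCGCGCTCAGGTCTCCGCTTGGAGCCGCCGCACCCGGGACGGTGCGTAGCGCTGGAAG

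**Figure D4:**
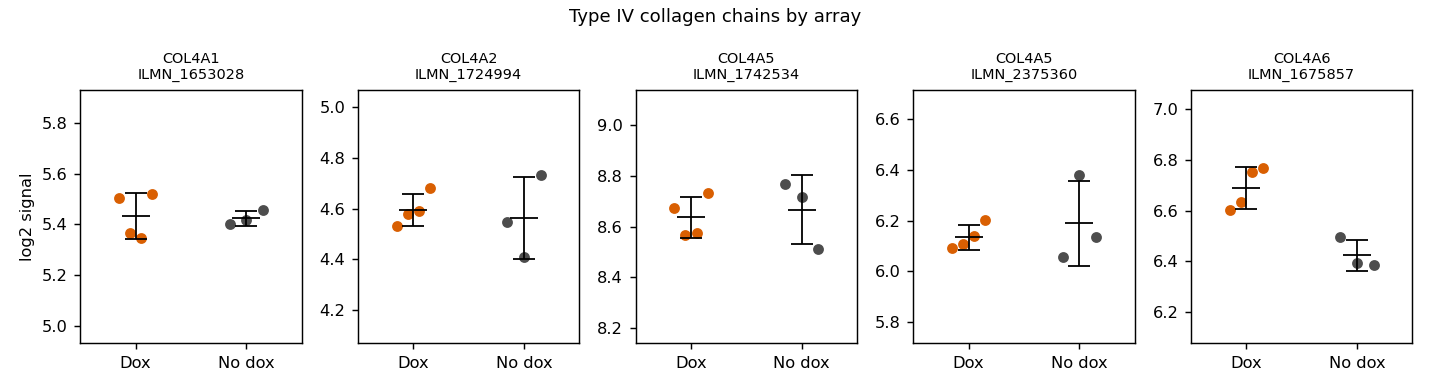
Background-corrected log2 signal (y axis, each panel spanning 1 log2 unit of its own probe) of the type IV collagen probes in Dox (4 arrays) and No dox (3 arrays). Points are arrays, bars are mean ± SD, and only in the COL4A6 panel do the groups not overlap.

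COL6A3, the α3(VI) chain of beaded filaments, was above background on 0 of 4 Dox and 2 of 3 No dox arrays. Its log2 signals were 4.41, 4.50, 4.35 and 4.50 in Dox, against 4.65, 4.83 and 4.78 in No dox. The Dox values are at background and the probe entered the fit through No dox alone, so the difference has only a bound. Set against the lowest detected signal of each Dox array, the No dox mean of COL6A3 was 1.02-fold higher. That value takes no account of the spread between arrays, and the probe was not called. The other chains of type VI collagen were detected on all arrays and overlapped between groups, with log2 fold changes of −0.09 for COL6A1 (95% CI −0.29 to 0.12) and of −0.02 and −0.03 for the 2 probes of COL6A2.

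Fibrillar collagens divided by how well they were detected. COL5A1 and COL5A2, the chains of the type V collagen that starts fibrils, were detected on all 7 arrays. COL5A2 had 9.78, 9.60, 9.71 and 9.75 in Dox and 9.66, 9.62 and 9.46 in No dox, with overlap (log2 fold change 0.13, 95% CI −0.05 to 0.31), and COL5A1 had a log2 fold change of 0.01. The type I chains, the main product of fibroblasts and bone cells, were near background: COL1A1 on 0 of 4 Dox and 1 of 3 No dox arrays, and the COL1A2 probes on 3 and 1 of 4 Dox and on 2 and 2 of 3 No dox arrays. The log2 fold changes of the COL1A2 probes had opposite signs, 0.13 and −0.19, neither past the test.

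Of the short-chain collagens, COL8A1, a chain of the hexagonal network under endothelia, had 5.05, 5.17, 4.87 and 5.03 in Dox, against 5.22, 5.25 and 5.17 in No dox, at ILMN_1685433. The groups did not overlap, by a margin below 2 decimals (log2 fold change −0.18, 95% CI −0.37 to 0.00, adjusted p = 0.60 from limma). On the authors' values it was −0.06. Its second probe, detected on 5 of 7 arrays, had −0.13, and COL8A2, its partner chain, had 0.15 (adjusted p = 0.73 from limma). COL7A1, the anchoring fibril that ties the basement membrane to the dermis, had a log2 fold change of 0.17 (95% CI −0.08 to 0.42), with Dox replicate 1 the highest array at 5.92. COL18A1, which carries endostatin, had 0.11, COL13A1, a collagen that crosses the cell membrane, −0.10, and COL12A1, associated with fibrils, −0.13. The groups overlapped in all 4, and COL16A1, also fibril-associated, was detected on a single Dox array.

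The Dox and No dox arrays did not overlap in 7 of the 47 probes detected in both groups (5 higher and 2 lower in Dox), against 9.46% of all such probes and 9.3% of all tested probes, with no test of that difference. These were COL4A6, ITGA3, ITGA5 and 1 probe each of LAMA4 and ITGB2 above, and LAMB3 and 1 probe of COL8A1 below. These 7 probes did not overlap on the authors' values, which come from the same arrays and are no separate check. COL6A3 did not overlap either, but it was at background in Dox and entered the fit through No dox alone, so it is not counted. The within-group SD of the members had a median of 0.12, and that of all tested probes was 0.12 as well.

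**Figure D5:**
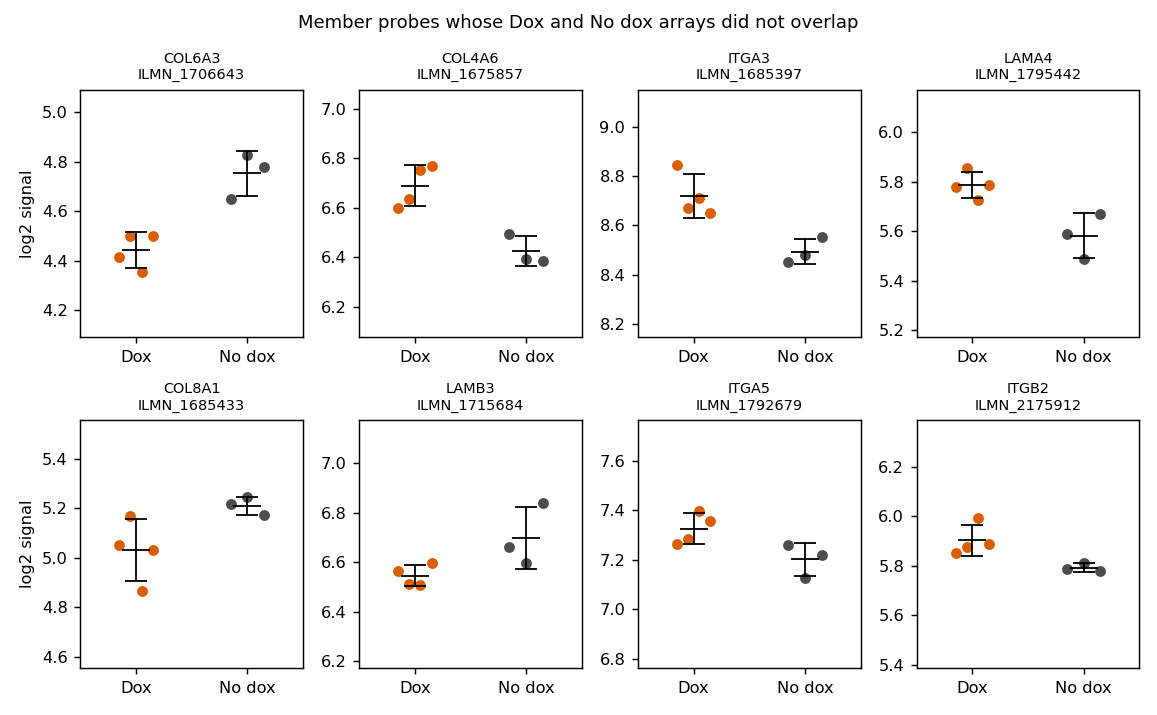
Background-corrected log2 signal (y axis, each panel spanning 1 log2 unit of its own probe) of the 8 member probes whose Dox (4 arrays) and No dox (3 arrays) values did not overlap, ordered by p. Points are arrays and bars are mean ± SD. In the panels of COL6A3, COL8A1 and LAMB3 the Dox arrays lie below, and in the other 5 above. COL6A3 was not above background in Dox and is shown but not counted.

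ITGB1BP1 and ITGB3BP carry integrin names without being integrin chains. ITGB1BP1 encodes ICAP1, which binds the tail of β1 integrin, and its probes had log2 fold changes of 0.06 and 0.05. ITGB3BP encodes the centromere protein CENPR. It had 6.91, 7.05, 7.03 and 7.17 in Dox, against 7.24, 7.21 and 7.15 in No dox, where No dox replicate 4 lay just below Dox replicate 4 (log2 fold change −0.16, 95% CI −0.33 to 0.02, adjusted p = 0.63 from limma).

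The proteins around these chains were counted from lists of adhesion and matrix genes. Of 20 cytoplasmic integrin partners, 19 had 29 tested probes, of which 0 passed in either direction, 11 had a log2 fold change above 0, and the median was −0.022. TLN2, a talin that activates integrins, had 0.37 (adjusted p = 0.28 from limma), and PTK2, the focal adhesion kinase, had −0.24 at 1 probe (adjusted p = 0.40) and −0.02 at the other. LIMS1, which encodes PINCH1, had −0.24 at 1 probe (adjusted p = 0.47 from limma) and −0.03 at the other. Of 20 genes of collagen and laminin processing, 15 had 19 tested probes, with 0 called, 14 above 0 and a median of 0.041. BMP1, which trims procollagens and some laminin chains, had 0.25 (adjusted p = 0.53 from limma). Of 16 other matrix ligands and receptors, 8 had 12 tested probes, with 0 called and 6 above 0. Tenascin C (TNC) had −0.21 at 1 probe (adjusted p = 0.51 from limma) and 0.01 at the other, and nidogen 1 (NID1), which ties laminin to type IV collagen, had −0.22 (adjusted p = 0.51). At an unadjusted p under 0.05 the 3 lists held 3 of 29, 1 of 19 and 2 of 12 probes, against 8.5% of all tested probes, and 49.7% of these were above 0.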

How the data were processed

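Expression was measured on Illumina HumanHT-12 v4 BeadChips in 4 Dox and 3 No dox arrays of PC3 TRIPZ-MITFA cells. The authors deposited signal intensity and detection p-values from GenomeStudio for 47323 probes. They also deposited log2 values for 19337 probes, background-corrected and quantile-normalized with lumi per the paper's methods, with a median of 7.16 in each column. Quantile normalization of the log2 signal with no background step gave values within 0.046 of them. The samples were grouped by their titles.

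Background was corrected here with neqc of limma 3.58.1 (R 4.3.3), which here takes its negative controls from the detection p-values (offset 16), since lumi was not used, followed by quantile normalization and log2. Probes that any array detected (p-value under 0.01), 19337 in all, entered 1 limma fit of the 2 group means with moderated variances and Benjamini-Hochberg adjustment over all of them. The fit was tested on simulated data. Names came from the platform annotation, which gives 1 gene for 15060 tested probes and none for 4275, and all 42 member symbols matched RefSeq by gene identifier. For a probe detected on no array of a group, the fold is bounded by the lowest detected signal of each array, and none is given where that bound is under 1. Fitted values of such probes enter no figure of fold changes. Values per array were given for listed epithelial receptor and basement membrane chains, the 12 member probes with the smallest p and those whose groups did not overlap, and COL4A5, COL5A2 and ITGB2 were added after their values were seen. Members, lists and tests were chosen with earlier results of these data known. The alternatives left out each array, added the replicate block, array weights or an intensity trend, used the authors' values, or changed the background, the normalization or the dim-probe filter. Some listed genes are not reported here. The number of arrays limits the precision.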

Additional observations from a re-analysis of the deposited data

Results flagged for a closer look

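In the Dox groups of the 54 member probes, 2 had 1 of the 4 arrays far from the rest, where about 1 in 20 groups would be marked by chance. Groups of 3 arrays, as in No dox, were not examined in this way. For ITGB1 (ILMN_1723467) the low array was Dox replicate 1, separated by 0.841 of the range of the Dox values. For ITGB1BP1 (ILMN_1665107) it was Dox replicate 2, the highest, at 0.887 of the range.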

How the results depend on the processing

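The count of 0 called member probes, higher and lower, held under all 17 alternative fits, with the replicate block and the fits that leave out 1 array (0 to 0) among them. From 3 (replicate block, 7.32% of all probes) to 8 (no filter on dim probes) of the member probes were at an unadjusted p under 0.05. Without the filter the share over all 47323 probes was 6.58%, but most of those were undetected. The members stayed the same 54 detected probes, so the 8 cannot be set against that share. The fit limited to probes detected in both groups was chosen after seeing the data and called 0 of 47. Over all probes those fits called from 6 higher and 0 lower (replicate block) to 93 higher and 39 lower (intensity trend). The smallest adjusted p of a member was 0.12, for ITGA3, both on the authors' values and with no background step. With 1 array left out, the median log2 fold change ranged from 0.033 to 0.12 for integrins, from −0.049 to 0.053 for laminins, from −0.04 to 0.0068 for collagens and from 0.0093 to 0.047 over all members. Beyond the spread between arrays were 0.12 for integrins without No dox replicate 4 and 0.053 for laminins without Dox replicate 3. The laminin median turned sign in 3 of these fits and the collagen median in 2. The cause was not tested. With the replicate block the integrin median was 0.074, from 6 arrays. These arrays without the block give the same value by design, since each replicate number then has 1 array in each group. After the group mean of each probe was taken off, same-numbered Dox and No dox arrays had correlations of −0.03, 0.01 and −0.02 over all tested probes. These values cannot tell whether such arrays shared a culture or a day. Of 453 values of 27 named probes, 453 stayed uncalled, and 27 of them, in 9 probes, changed sign. Requiring detection on all 7 arrays kept 41 of 54 probes. A detection p-value under 0.05 keeps all 54 by design, since each passed 0.01 on 1 array or more. Probes of these families that only the looser limit would add carry no name here. The stricter filter on dim probes left out 11 member probes. COL6A3 and the 6 other probes above background in 1 group only are limited by their signal.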
